A study of Mus musculus with 12 samples.

Results

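Glycogen synthesis and breakdown in the liver was described from 9 genes listed by symbol, all of which have 1 row in the deposited table of 23849 gene symbols. They are the synthase Gys2, the primer Gyg, the branching enzyme Gbe1, the sugar-nucleotide enzyme Ugp2, the phosphorylase Pygl, the kinase subunit Phka2 and the phosphatase-targeting subunits Ppp1r3b, Ppp1r3c and Ppp1r3g. Liver RNA came from 12 male C57BL/6J mice, 8 weeks old in the series description and all fed a high-fat diet (HFD), with 3 mice in each of 4 groups. Mice were gavaged daily for the last 2 weeks of a longer HFD period, shortly before lights off. They received Policaptil Gel Retard (Libramed in the sample labels), a gel-forming fiber blend, or drinking water as vehicle. Livers were taken at ZT0 or ZT12, where zeitgeber time (ZT) counts hours from lights on, so that ZT12 is the start of the active phase. No group on normal diet is in this RNA data, so every comparison is made within HFD. The study also assayed glycogen itself in the liver and reported less of it under HFD with the product than with vehicle. That assay was not analysed here.

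Glycogen is a branched store of glucose. Ugp2 makes UDP-glucose, glycogenin (Gyg) starts the chain, the liver synthase Gys2 lengthens it and Gbe1 adds branches, while the liver phosphorylase Pygl releases glucose 1-phosphate from the chain ends. Phosphorylase kinase, of which Phka2 is the liver regulatory subunit, switches the phosphorylase on. Protein phosphatase 1 works in the other direction, activating the synthase and inactivating the phosphorylase, and it is brought to the glycogen particle by targeting subunits such as Ppp1r3b (GL), Ppp1r3c (PTG) and Ppp1r3g. In mice the liver store is filled during the night, when they eat, and drawn on during the day. These roles are background and were not measured here. The comparisons of time and of treatment share livers and are not independent of each other.

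Values are FPKM, fragments per kilobase of transcript scaled by the authors to the mapped reads, so levels can be set side by side between genes. Over the 12 livers the mean levels were ordered Pygl (206 FPKM), Ppp1r3b (98.9 FPKM), Ugp2 (97.2 FPKM), Gys2 (76.8 FPKM), Gbe1 (32.8 FPKM), Ppp1r3c (25.6 FPKM), Phka2 (6.30 FPKM), Gyg (2.64 FPKM) and Ppp1r3g (0.196 FPKM). The means of Ppp1r3b and Ugp2 lay close together beside their spread (SD 31.8 and 18.2 FPKM, n = 12), which includes the differences between groups. Their order depended on the group. With the product Ugp2 was the higher in each ZT0 liver and Ppp1r3b in each ZT12 liver. With vehicle Ppp1r3b was the higher in each ZT0 liver, and the order was mixed at ZT12. All members but Ppp1r3g passed the minimum mean of 1 FPKM, which left 8 members among the 9806 symbols tested. Differences were tested with limma on log2(FPKM + 1), and a gene is called changed where its p, adjusted by Benjamini-Hochberg over all genes tested, is under 0.05. A fold change on this scale understates the change of low genes.

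FPKM summed to between 634683 and 759355 per library, and depth relative to vehicle ZT0 replicate 1 lay between 0.718 and 1.27, read from the spacing of the lowest values. Of 7 hepatocyte markers 6 were abundant, and Alb is listed at 0 in every library. The summed hepatocyte markers, mostly Apoa1, held 29855 to 33582 FPKM with vehicle and 35191 to 43353 FPKM with the product at ZT0, and 28733 to 32611 and 32988 to 39643 FPKM at ZT12. Policaptil ZT12 replicate 3 stood apart, with 47.9 FPKM summed over 5 skeletal muscle markers against 0.943 to 1.59 FPKM in the other 11 libraries, so results that rest on it are given with and without it. The summed endothelial markers (4 genes) were lower at ZT12, at 3.68 to 5.13 FPKM against 6.15 to 8.69 FPKM with vehicle and 4.92 to 5.91 against 7.76 to 9.54 FPKM with the product. Stellate markers did not overlap with the product (7.20 to 12.7 FPKM at ZT0, 3.81 to 5.72 FPKM at ZT12), nor did fat markers with vehicle (2.85 to 7.97 and 11.5 to 42.8 FPKM) and pancreas markers with vehicle (47.2 to 70.0 and 30.2 to 45.8 FPKM). In the other treatment each of these lists overlapped between times. The fat sum was nearly all Cfd and the pancreas sum nearly all Cela1. The other genes of these 2 lists were at or near 0 in every library, so each sum describes a single gene. In bulk tissue, fewer cells of a type and less RNA per cell cannot be told apart. The part of these markers in the results was not tested. Of 7 clock genes used to check the time labels, Dbp, Per1, Per2 and Per3 rose and Arntl, Clock and Nfil3 fell at ZT12 in both treatments (limma adjusted p between 0.000959 and 0.0325).

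The genomic neighbourhood of the members was read from RefSeq promoter windows (build GRCm38.p6, the same coordinates as mm10). Of the 9 members 7 matched, with 8 windows in all. Gys2 and Ppp1r3b had no window and were not searched. The 250 bases before each start were searched on both strands for 3 motifs of the liver clock. Among the members searched, the E-box CACGTG, which is its own reverse complement, was present only before Ppp1r3c, while 6.02% of all 32851 windows hold it. The D-box TTATGTAA (0.819% of all windows) and the ROR element core TAGGTCA (2.23%) had no match before any member searched. Shown are the window of Ppp1r3c, the member that fell at ZT12, and that of Gbe1, a member that rose. The first ends at the base before the GENCODE start, lies on the minus strand at chr19:36736654-36736854, and carries its E-box (capitals) 104 bases before the RefSeq start. The second lies on the plus strand at chr16:70313699-70313948 and holds no E-box.
Ppp1r3c: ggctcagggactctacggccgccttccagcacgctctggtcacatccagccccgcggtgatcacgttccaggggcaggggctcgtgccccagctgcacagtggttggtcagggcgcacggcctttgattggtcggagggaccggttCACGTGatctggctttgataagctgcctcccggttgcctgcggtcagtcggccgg
Gbe1: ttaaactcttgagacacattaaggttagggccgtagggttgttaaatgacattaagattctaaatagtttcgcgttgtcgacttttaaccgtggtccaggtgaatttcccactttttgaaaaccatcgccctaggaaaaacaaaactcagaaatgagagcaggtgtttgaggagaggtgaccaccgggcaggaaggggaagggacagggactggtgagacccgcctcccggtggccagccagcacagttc
A match is a description of the letters and not of a bound site.

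The first question was how the glycogen genes differ between morning and evening. The synthase had the lowest adjusted p of all members in each treatment. Gys2 (ENSMUSG00000030244.7, chr6:142422613-142473109 of mm10) more than doubled at ZT12 in both treatments, and the enzymes that feed and branch the chain rose with it when both treatments were analysed together. Ppp1r3b also rose and Ppp1r3c fell. Gyg and Phka2 were not called in any comparison. Over both treatments, with treatment as an additive term in a fit of the 12 livers, 5 members rose at ZT12 and 1 fell, of 8 tested, where 29.7% of all genes tested were called (15.9% higher, 13.8% lower). The median log2 difference of the 8 members was 0.33, against 0.01 over all genes tested.

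Gys2 with vehicle had 39.6, 47.3 and 44.9 FPKM at ZT0 and 97.2, 109 and 105 FPKM at ZT12. The product livers had 47.7, 47.6 and 48.9 FPKM at ZT0 and 107, 98.5 and 129 FPKM at ZT12. All 6 evening livers were above all 6 morning livers. The means were 44.0 ± 4.0 and 104 ± 6.1 FPKM with vehicle (SD, n = 3), and 48.1 ± 0.71 and 112 ± 16.0 FPKM with the product. The log2 fold change was 1.22 with vehicle (SE 0.10, limma adjusted p = 0.00258) and 1.19 with the product (SE 0.11, limma adjusted p = 0.00217). Gys2 kept this call in each treatment when any 1 library was left out and under each other setting tried.

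**Figure D1:**
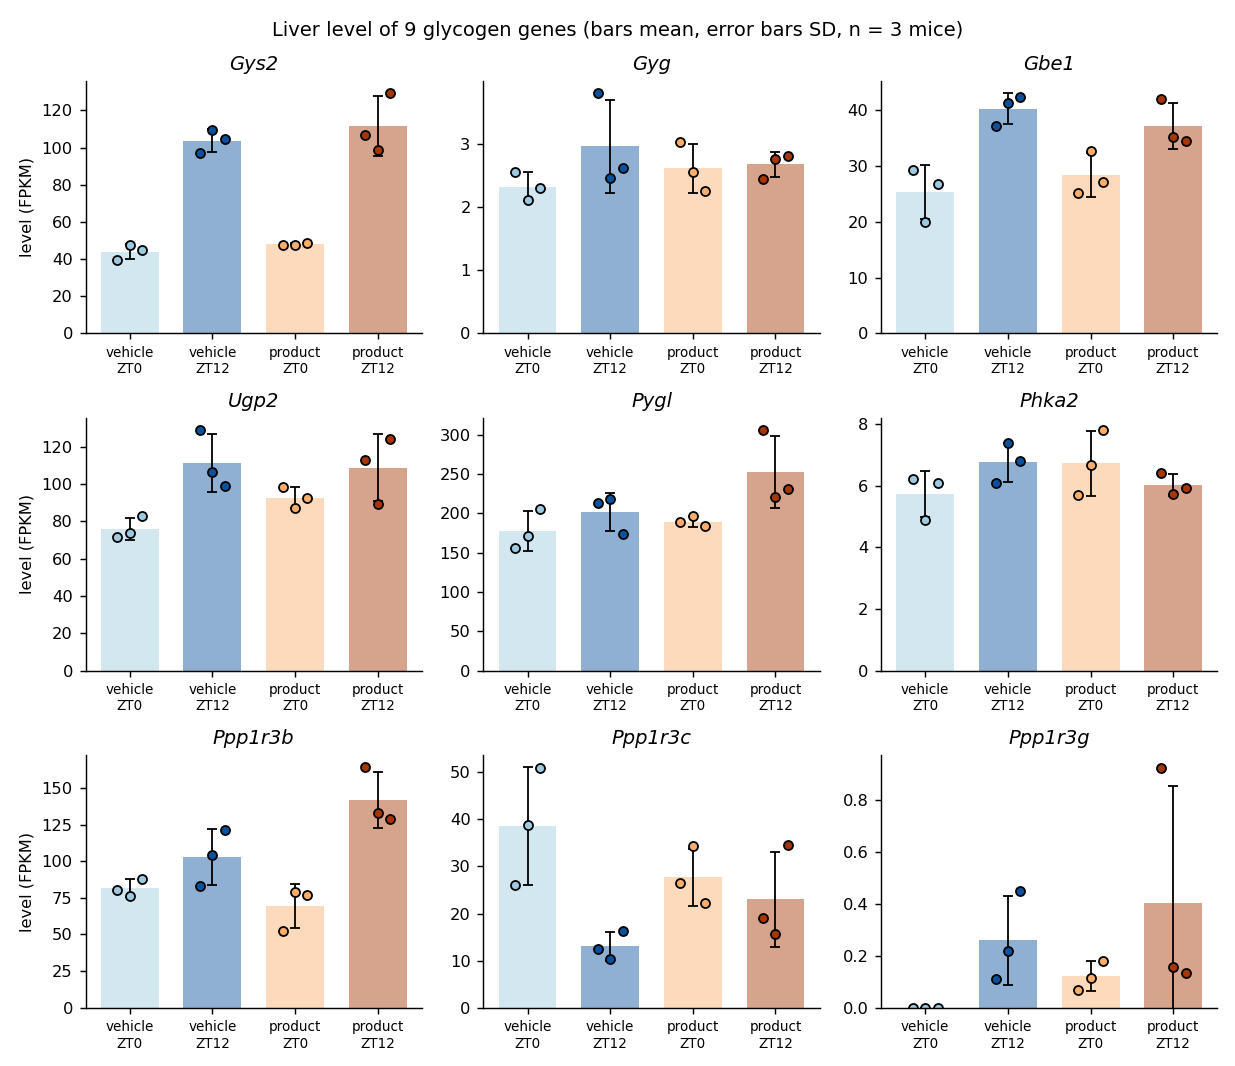
Liver levels in FPKM (vertical axes, each from 0) of the 9 glycogen genes in the 4 groups, with a point per mouse, bars at the group mean and error bars of 1 SD (n = 3). Gys2 sits between 39.6 and 48.9 FPKM in the 6 morning livers and between 97.2 and 129 FPKM in the 6 evening livers, while Ppp1r3c has its lowest group at vehicle ZT12 (10.2 to 16.3 FPKM).

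Gbe1 (ENSMUSG00000022707.16, chr16:70313949-70569716), the branching enzyme, had 29.2, 20.0 and 26.8 FPKM at ZT0 and 37.1, 41.3 and 42.3 FPKM at ZT12 with vehicle. The product livers had 25.2, 32.7 and 27.0 FPKM in the morning and 41.9, 35.2 and 34.5 FPKM in the evening. Evening livers were again all above morning livers, more narrowly with the product. The log2 fold change was 0.66 with vehicle (SE 0.15, limma adjusted p = 0.0358). This call was lost without any of vehicle ZT0 replicate 3 or vehicle ZT12 replicates 1, 2 and 3 (adjusted p 0.0711 to 0.123), with log2 fold changes of 0.63 to 0.72. With the product the log2 fold change was 0.38 (SE 0.12, limma adjusted p = 0.0877), and over both treatments it was 0.52 (limma adjusted p = 0.00284), a call that no left-out library ended.

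Ugp2 (ENSMUSG00000001891.16, chr11:21321138-21371201), which supplies UDP-glucose, had 71.6, 73.8 and 82.7 FPKM at ZT0 with vehicle and 129, 106 and 98.8 FPKM at ZT12. Under the product it had 98.5, 87.0 and 92.4 FPKM in the morning and 113, 89.2 and 124 FPKM in the evening. The groups were apart with vehicle and overlapped with the product. The log2 fold change with vehicle was 0.54 (SE 0.12, limma adjusted p = 0.0369), and the call was lost when any 1 of the 6 libraries was left out (adjusted p 0.0645 to 0.107). Over both treatments the difference was 0.38 on the log2 scale (limma adjusted p = 0.0135), which held without each of the 12 libraries in turn.

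Gyg (ENSMUSG00000019528.18, chr3:20122084-20155317), the primer protein, was low and was not called. Its group means were 2.32 ± 0.23 and 2.96 ± 0.73 FPKM with vehicle at ZT0 and ZT12, and 2.61 ± 0.39 and 2.67 ± 0.20 FPKM with the product (SD, n = 3). Groups overlapped in each comparison of Gyg.

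On the breakdown side, neither tested gene was called within a treatment by limma. Pygl (ENSMUSG00000021069.17, chr12:70190811-70231488) had 156, 172 and 206 FPKM at ZT0 and 214, 218 and 174 FPKM at ZT12 with vehicle, and these groups overlapped. In product livers it was at 189, 197 and 184 FPKM in the morning and 306, 222 and 231 FPKM in the evening, without overlap. The log2 fold change was 0.19 with vehicle (SE 0.14, limma adjusted p = 0.440, 95% interval −0.14 to 0.51). With the product it was 0.40 (SE 0.13, limma adjusted p = 0.0919, and 0.0363 by the Cyber-T test). Over both treatments Pygl was called (0.29 on the log2 scale, limma adjusted p = 0.0454), but leaving out any 1 of 9 of the 12 libraries ended the call, with adjusted p up to 0.0893. Quantile normalization ended it with a log2 difference of 0.19 (adjusted p = 0.187), and so did median-ratio scaling (0.0568), the replicate block (0.0662) and testing with no minimum FPKM (0.0725).

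Phka2 (ENSMUSG00000031295.13, chrX:160502166-160598878), the regulatory kinase subunit, had means of 5.73 ± 0.74 and 6.75 ± 0.64 FPKM with vehicle at ZT0 and ZT12, and 6.72 ± 1.06 and 6.02 ± 0.35 FPKM with the product (SD, n = 3). Its groups overlapped at every comparison, and no p of limma was under 0.05.

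The balance of synthase and phosphorylase was described in each liver as the log2 ratio of Gys2 to Pygl, on log2(FPKM + 1). The ratio restates the values of these 2 genes, which were listed with earlier results known, and is given with no test. It was −1.99 ± 0.17 at ZT0 and −0.95 ± 0.21 at ZT12 with vehicle, and −1.96 ± 0.07 and −1.17 ± 0.34 with the product (SD, n = 3). The least negative morning ratio was −1.84 and the most negative evening ratio −1.51, so the times did not overlap. Averaged over treatments the ratio was 0.91 higher at ZT12. Pygl stayed the more abundant transcript of the pair in each liver.

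Of the targeting subunits of protein phosphatase 1, Ppp1r3b and Ppp1r3c moved in opposite directions between morning and evening over both treatments. Within neither treatment were both of them called. Ppp1r3b (ENSMUSG00000046794.9, chr8:35375739-35388139), the main subunit of the liver, had 80.5, 76.0 and 88.2 FPKM at ZT0 and 83.0, 104 and 121 FPKM at ZT12 with vehicle, where the groups overlapped. Product livers had 52.3, 79.3 and 76.8 FPKM in the morning and 164, 133 and 129 FPKM in the evening, far apart. The log2 fold change was 1.04 with the product (SE 0.18, limma adjusted p = 0.0136), called without each library in turn, and the fitted level ratio was 2.05. Testing with no minimum FPKM (adjusted p = 0.0590) or with the replicate block (adjusted p = 0.05001) ended this call. Over both treatments Ppp1r3b rose by 0.68 on the log2 scale (limma adjusted p = 0.00671).

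Ppp1r3c (ENSMUSG00000067279.3, chr19:36731731-36736653) went the other way with vehicle. Its levels were 26.0, 38.8 and 50.9 FPKM at ZT0 and 12.6, 10.2 and 16.3 FPKM at ZT12. With the product they were 26.5, 34.2 and 22.3 FPKM in the morning and 19.0, 15.6 and 34.5 FPKM in the evening. The highest of these last 3 values belongs to replicate 3, the library with muscle RNA, and only there did the evening level reach the morning range. With vehicle Ppp1r3c fell by 1.47 on the log2 scale (SE 0.26, limma adjusted p = 0.0193). Leaving out vehicle ZT0 replicate 3 (−1.25), vehicle ZT12 replicate 1 (−1.45) or vehicle ZT12 replicate 2 (−1.32) ended the call (adjusted p 0.0601 to 0.0755). With the product the difference was −0.31 with limma adjusted p = 0.518, and without replicate 3 at ZT12 it was −0.63 with limma adjusted p = 0.107. Over both treatments it fell by 0.89 (limma adjusted p = 0.0230), and by 1.10 without that library (adjusted p = 0.00369). The call over both treatments was lost without vehicle ZT12 replicate 1 (adjusted p = 0.0504) or replicate 2 (adjusted p = 0.0538).

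**Figure D2:**
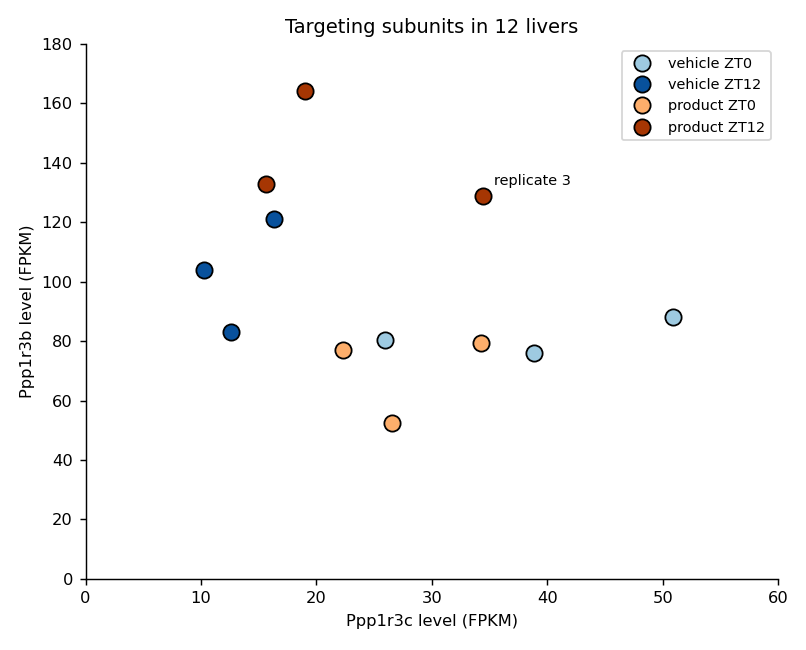
Level of Ppp1r3b (vertical axis, FPKM) against Ppp1r3c (horizontal axis, FPKM) in the 12 livers, with a point per mouse coloured by group. Morning livers lie at 22.3 FPKM of Ppp1r3c or above, and evening livers at 19.0 FPKM or below except the labelled Policaptil ZT12 replicate 3 (34.5 FPKM).

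The level of Ppp1r3b relative to Ppp1r3c was examined after these values were seen and is given as a description. It was 1.73 to 3.10 in vehicle livers at ZT0 and 6.61 to 10.2 at ZT12. With the product it was 1.97 to 3.44 in the morning and 8.64, 8.51 and 3.74 in the evening, the last in replicate 3. Each evening ratio was thus above every morning ratio.

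Ppp1r3g (ENSMUSG00000050423.11, chr13:35958839-35970388), a further targeting subunit, was close to the lower end of what the table holds. It is listed at 0 in all 3 vehicle livers at ZT0 and at 0.112, 0.217 and 0.447 FPKM at ZT12. With the product it had 0.0693, 0.113 and 0.182 FPKM at ZT0 and 0.923, 0.155 and 0.135 FPKM at ZT12, so a single liver set the highest level. Its mean was under the minimum for testing. When genes of any level were tested, its adjusted p in limma was 0.163 for time with vehicle and 0.553 with the product.

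With each treatment on its own, 4 of the 8 tested members were called for time with vehicle (Gys2, Gbe1 and Ugp2 higher, Ppp1r3c lower), where 10.4% of all genes were called. With the product 2 were called (Gys2 and Ppp1r3b, both higher), where 12.4% of all genes were called. Morning and evening groups did not overlap for 4 members in each treatment, where 33.2% and 34.9% of all genes had such groups, and for 2 members (Gys2 and Gbe1) over both treatments, where 13.3% had. A call in a single treatment does not show that the treatments differ, which the interaction below tests. The vehicle count fell to 1 without vehicle ZT0 replicate 3, vehicle ZT12 replicate 1 or vehicle ZT12 replicate 2, and to 2 without vehicle ZT12 replicate 3.

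**Figure D3:**
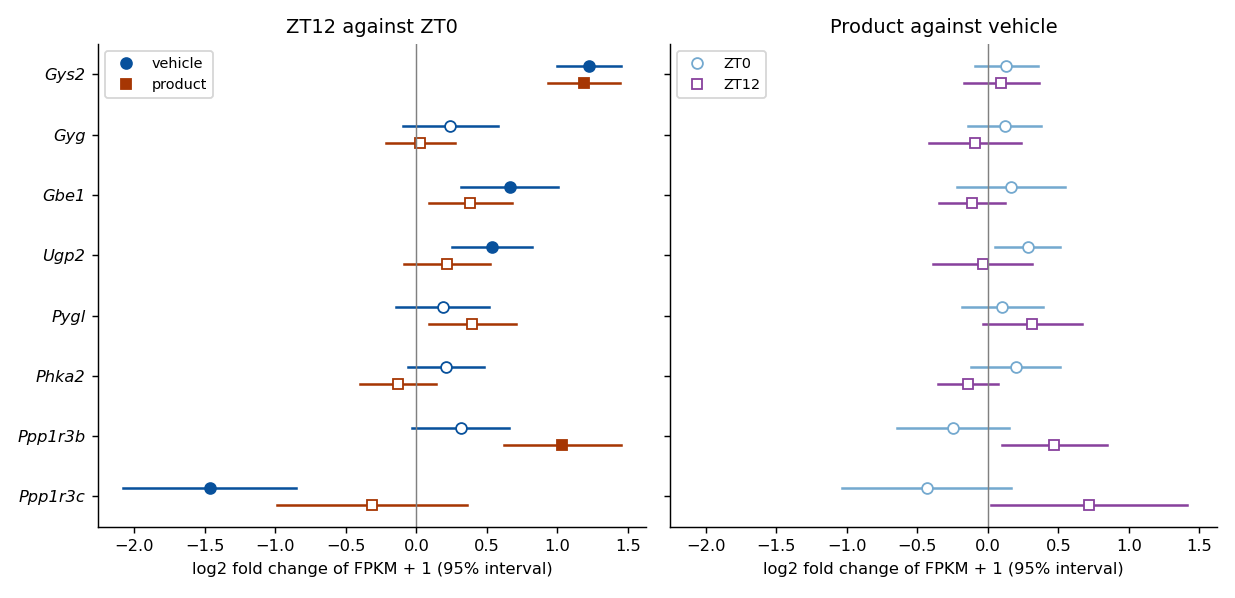
Log2 fold changes of FPKM + 1 with 95% intervals for the 8 tested members (vertical axis), ZT12 against ZT0 in the left panel and product against vehicle in the right panel, filled where the limma adjusted p is under 0.05. Filled points are Gys2, Gbe1, Ugp2 and Ppp1r3c with vehicle and Gys2 and Ppp1r3b with the product, and no point is filled on the right.

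The second question was whether Policaptil Gel Retard changed these genes. Neither the synthase nor the phosphorylase was called for treatment at any time. With limma 0 members were called at ZT0, 0 at ZT12 and 0 over both times, and Cyber-T also called 0 at ZT0 and 0 at ZT12. Among all genes tested 0% were called at ZT0, 0% at ZT12 and 0.0204% over both times. At an unadjusted limma p under 0.05 the members numbered 1 at ZT0 (Ugp2), 2 at ZT12 (Ppp1r3b and Ppp1r3c) and 0 over both times, against 9.23%, 6.74% and 10.1% of all genes.

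For Gys2 the log2 difference between product and vehicle was 0.13 at ZT0 (95% interval −0.09 to 0.35, limma adjusted p = 0.723). At ZT12 it was 0.10 (95% interval −0.17 to 0.36, limma adjusted p = 0.866), and −0.015 without Policaptil ZT12 replicate 3. Over both times it was 0.11 (95% interval −0.04 to 0.27, limma adjusted p = 0.610). The 3 product livers at ZT0 (47.6 to 48.9 FPKM) were above the 3 vehicle livers (39.6 to 47.3 FPKM), by a margin of under 1 FPKM, and groups overlapped at ZT12. For Pygl the difference was 0.10 at ZT0 (95% interval −0.18 to 0.39, limma adjusted p = 0.829) and 0.32 at ZT12 (95% interval −0.04 to 0.67, limma adjusted p = 0.729). The ZT12 value was 0.17 without Policaptil ZT12 replicate 1, the liver with 306 FPKM, and 0.21 without vehicle ZT12 replicate 3. Over both times it was 0.21 (95% interval −0.01 to 0.43, limma adjusted p = 0.506). At ZT12 the 3 product livers (222 to 306 FPKM) lay above the 3 vehicle livers (174 to 218 FPKM). Groups did not overlap for 2 members at ZT12 (Pygl and Ppp1r3b) and 2 at ZT0 (Gys2 and Ugp2), against 13.1% and 15.1% of all genes. The log2 ratio of Gys2 to Pygl differed by −0.10 between treatments.

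Ppp1r3b at ZT12 had 129 to 164 FPKM with the product and 83.0 to 121 FPKM with vehicle, without overlap. The log2 difference was 0.47 (SE 0.16, limma adjusted p = 0.729), with 0.33 to 0.60 when single libraries were left out and 0.54 without Policaptil ZT12 replicate 3. Without Policaptil ZT12 replicate 1, 0 members had an unadjusted p under 0.05 at ZT12. At ZT0 the product livers spanned 52.3 to 79.3 FPKM and the vehicle livers 76.0 to 88.2 FPKM. Ppp1r3c at ZT12 had a log2 difference of 0.72 (SE 0.29, limma adjusted p = 0.729), from overlapping groups. Without replicate 3 at ZT12, the library with muscle RNA, this became 0.40 and the unadjusted p was no longer under 0.05. Ugp2 at ZT0 had a log2 difference of 0.28 (SE 0.10, limma adjusted p = 0.506), from 71.6 to 82.7 FPKM with vehicle to 87.0 to 98.5 FPKM with the product.

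The third question was whether the change over time differs between treatments. Of the 8 members 0 had an adjusted p under 0.05 for the interaction in limma, as did 0% of all genes, and 2 had an unadjusted p under 0.05, against 6.63% of all genes. Those 2 were Ppp1r3b, with an interaction of 0.72 on the log2 scale (SE 0.25, limma adjusted p = 0.651), and Ppp1r3c, with 1.15 (SE 0.43, limma adjusted p = 0.665). Positive values mean that the evening level relative to the morning was higher with the product. Without Policaptil ZT12 replicate 3 they were 0.78 and 0.83. With single libraries left out the lowest values were 0.53 and 0.83. Leaving out replicate 3 of vehicle ZT0, or replicate 2 of vehicle ZT12, took the unadjusted p of Ppp1r3c above 0.05. The Gys2 interaction was −0.03 (95% interval −0.36 to 0.29, limma adjusted p = 0.984) and its sign changed when single libraries were left out. For Pygl it was 0.21 (95% interval −0.23 to 0.65, limma adjusted p = 0.881).

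A list of 22 other glycogen genes put the members in context, of which 13 were tested. For time with vehicle 1 was called higher (Pgm2) and 2 lower (Ppp1ca and Phkg2), where 5.62% and 4.78% of all genes were. The median log2 difference of the 13 was 0.04, against 0.01 over all genes. Pgm2, a phosphoglucomutase, joins the glycogen route to glucose 6-phosphate. With vehicle it rose from 107 ± 9.5 to 143 ± 11.3 FPKM (SD, n = 3, limma adjusted p = 0.0465). With the product it rose from 111 ± 3.6 to 142 ± 9.2 FPKM (SD, n = 3, limma adjusted p = 0.0360). It was the sole gene of this list called with the product, and without Policaptil ZT12 replicate 3 the count there was 0.

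Over both treatments Pgm2 rose by 0.39 on the log2 scale (limma adjusted p = 0.000724). Among the catalytic subunits of protein phosphatase 1, which the targeting subunits carry, Ppp1ca fell by 0.27 (limma adjusted p = 0.00121) and Ppp1cb by 0.25 (limma adjusted p = 0.0219). Ppp1cc, the third catalytic subunit, was not called, with a difference in the other direction (0.14, limma adjusted p = 0.258). Phkg2, the liver catalytic subunit of phosphorylase kinase, fell from 26.9 ± 1.9 to 20.9 ± 0.58 FPKM with vehicle (SD, n = 3, limma adjusted p = 0.0432) and had 21.6 ± 3.0 and 20.3 ± 2.3 FPKM with the product. The targeting subunit Ppp1r3e had 1.41 ± 0.40 and 2.41 ± 0.54 FPKM with vehicle (SD, n = 3, limma adjusted p = 0.108), and Cyber-T called this difference (adjusted p = 0.0374). Within vehicle the call of Phkg2 was lost without any 1 of the 6 libraries, that of Pgm2 without any but ZT0 replicate 1 and that of Ppp1ca without any but ZT0 replicate 2 (adjusted p up to 0.162). With the product the call of Pgm2 was lost without any library but ZT12 replicate 1. The call of Ppp1cb over both treatments was lost without Policaptil ZT0 replicate 1 (adjusted p = 0.0508). Pygm, the muscle phosphorylase, was under the minimum and reached 2.10 FPKM only in Policaptil ZT12 replicate 3. For treatment at ZT0, at ZT12 and over both times, limma called 0 of the 13 genes. An unadjusted p under 0.05 was found for 2 at ZT0 (Stbd1, −0.22 on the log2 scale, and Phkg2, −0.31), 1 at ZT12 (Phkb, −0.23) and 1 over both times (Ppp1ca, −0.11). Of all genes tested 9.23%, 6.74% and 10.1% had such a p. Pgm1, Gaa, Phka1, Gsk3a and Gsk3b were tested and had no p under 0.05 for time within a treatment or for treatment.

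**Figure D4:**
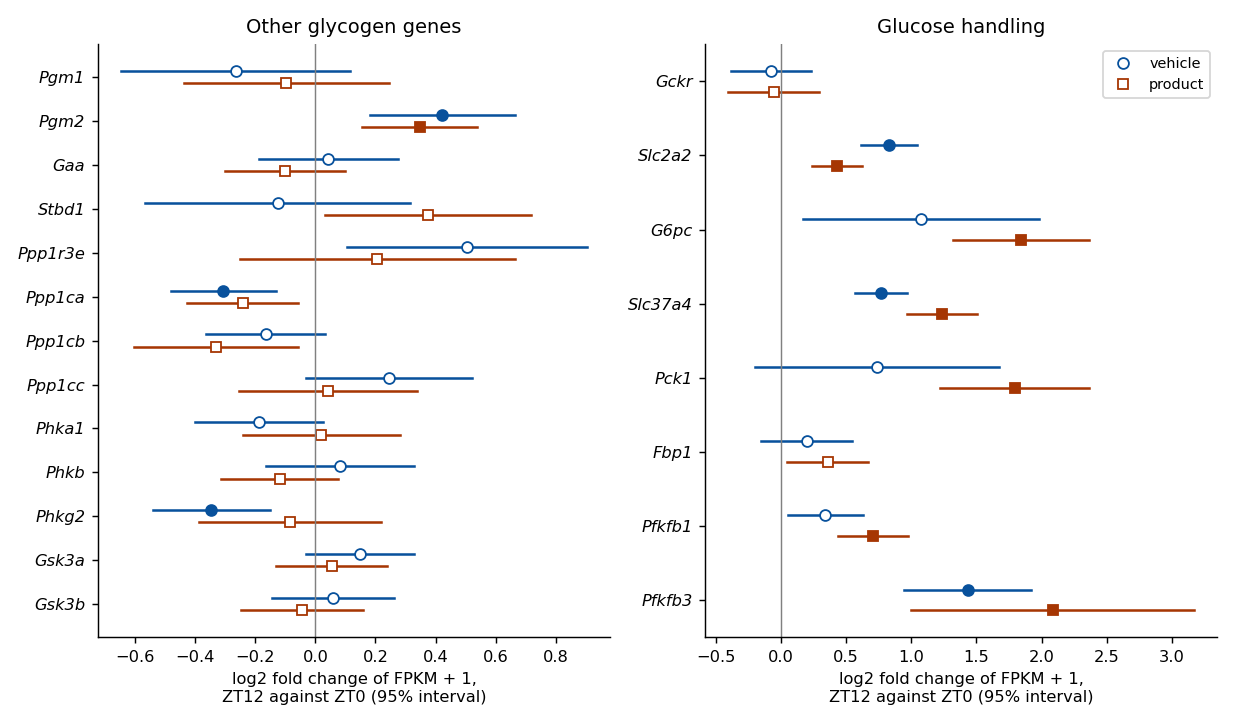
Log2 fold changes of FPKM + 1, ZT12 against ZT0, with 95% intervals for the 13 tested genes of the glycogen list (left) and the 8 of glucose handling (right), with vehicle (circles) and the product (squares), filled where the limma adjusted p is under 0.05. Filled points are 3 with vehicle and 1 with the product on the left, and 3 and 6 on the right.

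A list of 8 genes of glucose handling was tested in full. Slc2a2, G6pc and Slc37a4 act in moving or freeing glucose, Pck1 and Fbp1 in making it, and Gckr, Pfkfb1 and Pfkfb3 are regulators of its use. With vehicle 3 rose at ZT12, where 5.62% of all genes did, and with the product 6 rose, where 7% of all genes did. None fell in either treatment. The medians of the list were 0.75 and 0.97 on the log2 scale, against 0.01 over all genes in each. Slc37a4, the glucose 6-phosphate transporter of the endoplasmic reticulum, was at 96.6 ± 7.1 FPKM in the morning and 165 ± 2.6 FPKM in the evening with vehicle (SD, n = 3). The product livers had 84.7 ± 9.0 and 201 ± 22.3 FPKM. Its log2 fold changes were 0.77 and 1.24 (limma adjusted p = 0.00536 and 0.00221). Slc2a2, the glucose transporter GLUT2, rose by 0.83 with vehicle and 0.43 with the product (limma adjusted p = 0.00536 and 0.0184). The product call of Slc2a2 was lost without Policaptil ZT0 replicate 1 or 3, or ZT12 replicate 2 or 3 (adjusted p 0.0570 to 0.0612). G6pc, the phosphatase that frees glucose, had log2 fold changes of 1.08 with vehicle (limma adjusted p = 0.124, Cyber-T adjusted p = 0.00551) and 1.84 with the product (limma adjusted p = 0.00440). Without vehicle ZT0 replicate 1 the vehicle value was 0.63. Pck1, which starts gluconeogenesis, had 367 to 497 FPKM at ZT0 and 1090 to 2044 FPKM at ZT12 with the product (limma adjusted p = 0.00638), and overlapping groups with vehicle (346 to 1079 and 928 to 1359 FPKM). The regulator Pfkfb3 rose by 1.43 with vehicle (limma adjusted p = 0.0105) and 2.08 with the product (limma adjusted p = 0.0303). Without Policaptil ZT12 replicate 3, the liver with its highest level, the product value for Pfkfb3 was 1.57. Its level stayed under 2 FPKM in each morning liver and lay between 2.51 and 14.1 FPKM in the evening. Pfkfb1 had a log2 fold change of 0.34 with vehicle (limma adjusted p = 0.126) and rose by 0.71 with the product (limma adjusted p = 0.0110). Fbp1 (0.20 with vehicle, 0.36 with the product) and Gckr (−0.07 and −0.06) were not called. The vehicle call of Pfkfb3 was lost without vehicle ZT12 replicate 2 (adjusted p = 0.0501). Its product call was lost without any 1 of Policaptil ZT0 replicates 1, 2 and 3 or ZT12 replicate 2 (adjusted p 0.0764 to 0.0895). It was also lost with no minimum FPKM (0.106) and with the replicate block (0.0517). With the product the count was 5 without Policaptil ZT12 replicate 3 or ZT0 replicate 2, and 4 without ZT0 replicate 1, ZT0 replicate 3 or ZT12 replicate 2.

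For treatment limma called 0 of the 8 genes at ZT0, at ZT12 or over both times. An unadjusted p under 0.05 was found for 1 at ZT0 (Slc2a2, 0.32 on the log2 scale), 1 at ZT12 (Slc37a4, 0.28) and 0 over both times. The shares of all genes tested were 9.23%, 6.74% and 10.1%.

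Likeness of patterns was measured between log2(FPKM + 1) profiles over the 12 livers, each standardized to the same mean and SD, as the root-mean-square difference. It is 0 for the same shape, 1.41 for unrelated profiles and 2 for mirror images. Among the members, Gys2 was nearest to Gbe1 (0.63), Ugp2 (0.65) and Ppp1r3b (0.67), and farthest from Ppp1r3c (1.80). Of all genes tested, Gys2 was closest to Upp2 (0.14), Gm4737 (0.16) and Smarca2 (0.17). Ppp1r3b was closest to Dpyd (0.37), Pfkfb1 (0.38) and Ubr2 (0.38), and Ppp1r3c to Tra2a (0.44), Prss53 (0.46) and Thap1 (0.49). For Pygl the nearest gene was Cyb5r3 (0.43, then Tmem150a and Aes), for Gbe1 Pdk1 (0.26), for Ugp2 Sult2a8 (0.35), for Gyg Zfp58 (0.48) and for Phka2 Serpinb8 (0.47). The points share the time of day, so any gene with a similar step between ZT0 and ZT12 lies close.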

How the data were processed

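Liver RNA of 12 mice was sequenced by the authors as single-end reads. Their methods describe stranded mRNA libraries, alignment to mm10 and known UCSC splice junctions with ELAND, and removal of reads without a unique best match, while the submitters' processing notes name TopHat and Cuffnorm with mm10 (GRCm38) and the labels another TruSeq kit. These accounts were not reconciled. The deposited values are FPKM per gene and sample, called RPKM in the methods. Of 24138 lines, 289 repeat a symbol, and only the most abundant line of a symbol entered. No counts were used, so absolute depth is unknown, no counting error can be given, and the spread of 3 mice per group sets the precision.

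Genes whose mean reached 1 FPKM were tested on log2(FPKM + 1) with limma 3.58.1 in R 4.3.3 (mean-variance trend, two-sided). Each pair of groups was fitted on its 6 samples, and the interaction, treatment over both times and time over both treatments on all 12. The study's Cyber t-test gives no settings in the text read here, and a version with a window of 101 genes and a prior weight of 10 (Cyber-T) was an alternative. Scripts used Python 3.11.15 and were tested on simulated data. Gene coordinates come from GENCODE vM21, on the authors' build.

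Named are the 9 members, with fold changes for Gys2 and Pygl throughout and for the others where p was under 0.05, genes of the glycogen and glucose lists with p under 0.05 in a comparison or a mean of 1 FPKM or more, clock genes, and up to 3 genes most like each tested member. Some genes of these lists are not reported here. The members and lists were chosen with earlier results of these data known. Replicate numbers did not pair the samples: 4 of 18 same-numbered pairs had deviations from their group means correlated above 0.1 over genes. Among pairs with different numbers 14 of 36 did. Alternatives were a pseudocount of 0.1, no minimum or a minimum of 5 FPKM, limma without trend, median-ratio scaling, quantile normalization, the replicate number as a block, a fit over 12 samples, Cyber-T and each library left out. Counts of the lists without Policaptil ZT12 replicate 3 were added after seeing the data.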

Additional observations from a re-analysis of the deposited data

Results flagged for a closer look

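Time effects that differed between vehicle and Policaptil Gel Retard were marked where the interaction had an unadjusted p under 0.05 in limma, which 6.63% of all genes have. Among the members these were Ppp1r3b (0.72 on the log2 scale) and Ppp1r3c (1.15). Among the listed genes they were Slc2a2 (−0.40) and Slc37a4 (0.47). None passed adjustment over all genes (adjusted p 0.525 to 0.665). Groups of 3 are too small for the test of single outlying samples.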

How the results depend on the processing

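With no minimum FPKM, where more genes are tested, the members called for time were 1 with vehicle and 1 with the product, in place of 4 and 2. The replicate number as a block gave 2 with vehicle and 1 with the product; it changed no other count of members by over 1.5 times, and the numbers do not pair the mice. Leaving out single libraries gave 1 to 3 with vehicle. The other alternatives kept these counts within 1.5 times, and treatment and interaction stayed at 0 members throughout. The ratio of Gys2 to Pygl kept its direction under each alternative. Without single libraries, the Gys2 difference between treatments at ZT12 ranged from −0.015 to 0.18 and its interaction from −0.15 to 0.050. No other fold change of Gys2 or Pygl, or with an unadjusted p under 0.05, turned. The small time differences of Gckr turned positive without vehicle ZT0 replicate 1, and with the product without Policaptil ZT12 replicate 2 or replicate 3. Turns of the remaining fold changes were not followed. The cause of the changed counts was otherwise not tested. How far values near the lower end of the table, such as those of Ppp1r3g, depend on depth was not tested.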
